A study of Mus musculus with 23 samples.

Results

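The genes described here encode secreted ligands of the bone morphogenetic protein (BMP) and activin branches of the TGF-β superfamily and the extracellular proteins that hold these ligands back. They are 10 named genes: the BMP ligands *Bmp2*, *Bmp4* and *Bmp7*, the activin subunits *Inhba* and *Inhbb*, the distant family member *Gdf15*, and the antagonists or binding proteins *Fst*, *Fstl1*, *Grem1* and *Nog*. They were chosen by name out of 24940 gene symbols, and where a symbol had several transcripts the one with the highest mean stood for it. All 10 were found in both tables of the study, one of whole tumors and one of sorted cancer-associated fibroblasts (CAFs).

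The study grew 5 syngeneic tumor models in untreated adult female C57BL/6 mice by injecting 500000 cells of a C57BL/6-derived cancer cell line under the skin of the flank. The lines were B16-F10 melanoma (B16), EO771.LMB breast carcinoma (EO771), LL/2 lung carcinoma (LL2), MC38 colon carcinoma and Pan02 pancreatic ductal carcinoma, and 3 whole tumors of each were sequenced at endpoint. FAP+ cells, sorted as CAFs from the CD45- fraction, gave 2 libraries from separate sorting rounds for EO771, LL2, MC38 and Pan02 (libraries a and b). B16 CAFs are not among the samples because their RNA was not of sufficient quality. Each model is 1 cancer cell line, so a model differs from the others in its cancer cells and its host response together, and in whole tumors fewer cells of a type and less RNA per cell cannot be told apart.

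BMP ligands bind type I and type II serine/threonine kinase receptors and signal through SMAD1, SMAD5 and SMAD9, whereas activins, which are dimers of inhibin beta subunits, signal through SMAD2 and SMAD3. Both are antagonized outside the cell: noggin and gremlin bind BMPs, and follistatin binds activins with high affinity and some BMPs more weakly. In tumors these factors are made by cancer cells as well as by fibroblasts, and activin A and gremlin 1 are known as products of activated fibroblasts.

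RefSeq promoter windows, 250 bases before to 50 after a start site, were held for 6 of the 10 genes (GRCm38.p6, the same coordinates as mm10). The upstream parts of 3 are shown: *Bmp4*, the member with the largest difference of 1 tumor model from the mean of the others, and *Inhba* and *Grem1*, the members whose windows held a match. Capitals mark any match, on either strand, to 6 motifs: the BMP-responsive SMAD element GGCGCC, the SMAD-binding element GTCTAGAC, the cyclic AMP response element TGACGTCA, the AP-1 site TGANTCA, the TATA box TATAAA and the ATF4 composite element TGATGNAA. Each sequence runs 5′ to 3′ on the strand of its gene and ends at the base before the start site.
*Bmp4*, chr14:46390670-46390919, minus strand: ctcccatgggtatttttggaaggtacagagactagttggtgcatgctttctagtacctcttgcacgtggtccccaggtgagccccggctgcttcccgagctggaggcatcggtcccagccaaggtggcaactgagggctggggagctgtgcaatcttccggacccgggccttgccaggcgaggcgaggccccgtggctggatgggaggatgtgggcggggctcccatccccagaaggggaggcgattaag
*Inhba*, chr13:16011601-16011850, plus strand: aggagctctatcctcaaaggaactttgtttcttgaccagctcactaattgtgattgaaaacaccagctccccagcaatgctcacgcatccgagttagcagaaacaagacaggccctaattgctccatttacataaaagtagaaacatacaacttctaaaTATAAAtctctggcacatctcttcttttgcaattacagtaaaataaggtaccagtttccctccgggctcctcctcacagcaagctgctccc
*Grem1*, chr2:113758649-113758898, minus strand: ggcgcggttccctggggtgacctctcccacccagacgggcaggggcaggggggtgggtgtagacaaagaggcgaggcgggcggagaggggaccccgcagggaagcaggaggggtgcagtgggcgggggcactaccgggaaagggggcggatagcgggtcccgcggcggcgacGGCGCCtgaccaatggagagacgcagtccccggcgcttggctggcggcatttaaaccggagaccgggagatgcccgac

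The *Inhba* window held TATAAA, with its first base 91 bases before the start, and the *Grem1* window held GGCGCC, 78 bases before the start. Of 32851 mouse promoter windows of the same length, 13.6% held TATAAA and 11.9% held GGCGCC on either strand. The windows of *Bmp4*, *Inhbb*, *Fstl1* and *Gdf15* held none of the 6 motifs. These are letters in a window and not tested binding sites.

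Tumor libraries held 10035173 to 21946486 counts over genes. Reads recovered from the CAF values came to 6227806 to 19542666, with MC38 library b the shallowest. That library also stood apart from its partner: 6.08% of genes differed by 1 or more in log2(RPKM + 1) between the 2 MC38 libraries, against 0.434% to 2.27% in the other 3 pairs. *Col1a1*, a fibroblast collagen, was at 2771 RPKM in MC38 library a and 467 RPKM in library b. The CAF label was checked against markers. The summed level of 10 fibroblast markers was 1561 to 9890 RPKM in the CAF libraries. In Pan02 it was lower in CAFs (2475 to 3998 RPKM) than in whole tumors (8247 to 9167 RPKM). It was higher in CAFs than in tumors for EO771 (9139 to 9890 against 740 to 1578 RPKM) and LL2 (7051 to 8297 against 1186 to 2691 RPKM). In MC38 the ranges overlapped (1561 to 6780 and 593 to 2497 RPKM). *Fap* averaged 2.58 RPKM in Pan02 CAFs and 4.09 RPKM in Pan02 tumors. *Ptprc* (CD45) averaged 0.019 to 0.924 RPKM in the CAF groups. The sum of 10 leukocyte markers, *Ptprc* among them, was nevertheless 266 to 571 RPKM in Pan02 CAFs and 120 to 153 RPKM in EO771 CAFs, against 8.37 to 18.9 RPKM in LL2 and MC38 CAFs. Of the 8 tested, 7 were higher and 0 lower in EO771 CAFs. In Pan02 CAFs 1 was higher (*Cd74*) and 1 lower (*Cd79a*), and 6 of the 10 were below 1 RPKM in all libraries. The part of leukocyte RNA in the CAF results was not tested. However, *Krt8*, a keratin of epithelial cells, averaged 493 RPKM in EO771 CAFs, 465 RPKM in Pan02 CAFs and 87.3 RPKM in LL2 CAFs but 0.258 RPKM in MC38 CAFs. The corresponding whole tumors averaged 685, 585, 130 and 11.5 RPKM. Thus 3 of the 4 CAF groups held *Krt8* RNA at a level near that of the tumors, and its part in the CAF results was not tested. *Krt18*, another keratin, averaged 416 RPKM in Pan02 CAFs and 98.9 RPKM in LL2 CAFs. In EO771 CAFs it averaged only 1.06 RPKM and in MC38 CAFs 0.55 RPKM.

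**Figure D1:**
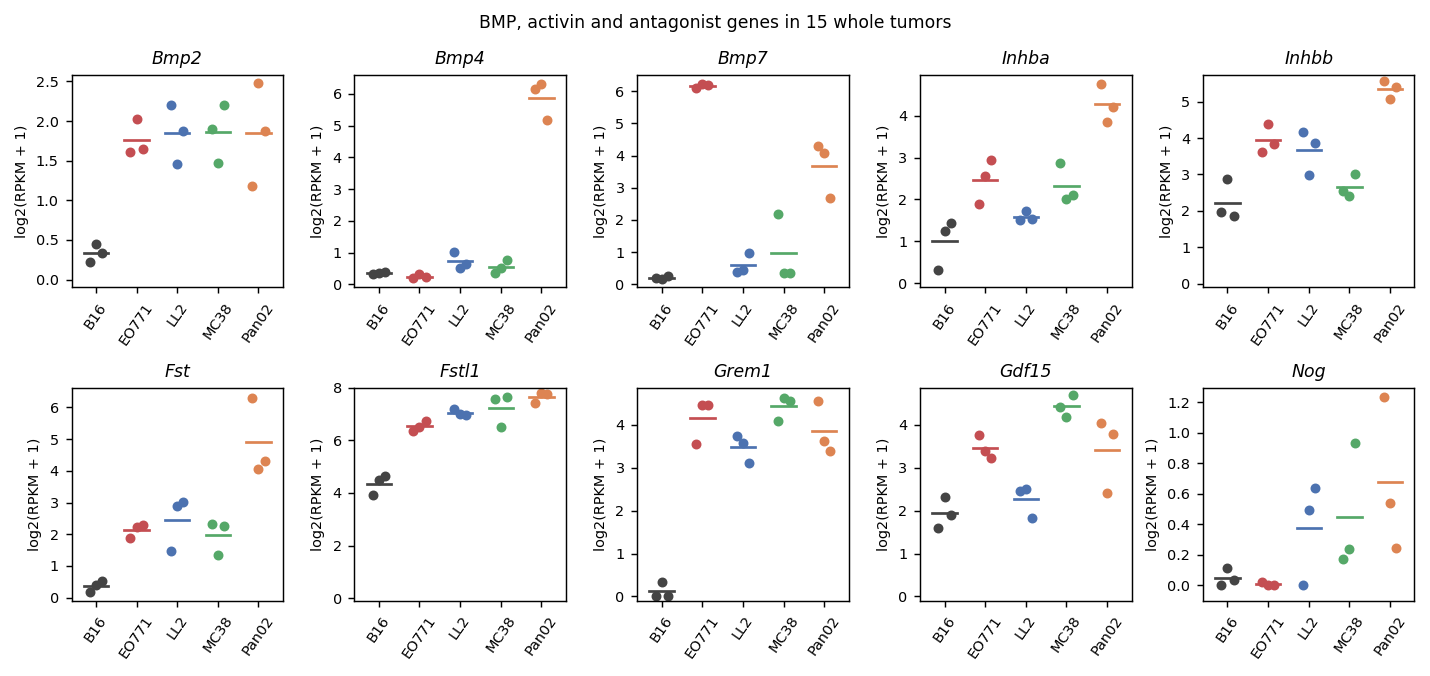
Level of each gene in the 15 whole tumors, as log2(RPKM + 1), with 3 points per model and a line at their mean. *Bmp4* stood high only in the 3 Pan02 tumors (34.9 to 78.2 RPKM), *Bmp7* was highest in the 3 EO771 tumors (67.3 to 73.5 RPKM), and *Grem1* was near 0 in B16 tumors.

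*Bmp4* (chr14:46383525-46390669, minus strand), a ligand that patterns mesoderm and limits proliferation in several epithelia, was a Pan02 gene in both tables. It was at 69.8, 78.2 and 34.9 RPKM in the 3 Pan02 tumors and at 0.142 to 1.03 RPKM in the other 12. No tumor of another model came near the Pan02 range. The difference from the mean of the other 4 models was 7.40 ± 0.24 on the log2 scale (SE; edgeR quasi-likelihood test, adjusted p = 1.1e-10). In CAFs it was at 130 and 101 RPKM in Pan02 and at 0.613 to 1.95 RPKM in the other 6 libraries. Again the Pan02 libraries lay above all others, by 5.78 ± 0.18 in log2(RPKM + 1) (limma, adjusted p = 1.2e-06). Among the other 4 tumor models the neighbours in the order LL2, MC38, B16 and EO771 did not separate (adjusted p = 0.27 to 0.37), although LL2 was above B16 (adjusted p = 0.048) and EO771 (adjusted p = 0.012), and their lower calls were set against a mean that includes Pan02. A share of 3.96% of its exon bases overlaps another gene, and the libraries carry no strand.

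*Bmp7* (chr2:172868012-172940321, minus strand), a BMP ligand with roles in kidney and skeletal development, was highest in EO771. The 3 EO771 tumors were at 67.3, 73.5 and 73.0 RPKM and the 3 Pan02 tumors at 18.8, 16 and 5.40 RPKM. LL2 tumors reached at most 0.966 RPKM and B16 tumors 0.204 RPKM. EO771 and Pan02 thus formed a first and a second level, without overlap, and the step between them was 2.41 ± 0.70 on the log2 scale (edgeR, adjusted p = 0.0090). EO771 exceeded the mean of the other models by 5.98 ± 0.50 (adjusted p = 4.4e-07) and Pan02 by 2.97 ± 0.52 (adjusted p = 0.00024).

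The MC38 tumors were uneven for *Bmp7*: 3.52 RPKM in replicate 1 against 0.278 and 0.271 RPKM in replicates 2 and 3. *Krt8* was uneven in the same way, at 30.5 RPKM in replicate 1 against 2.32 and 1.58 RPKM. *Krt18* was not, at 0.969 RPKM in replicate 1 against 1.11 and 1.48 RPKM. The MC38 difference from the other models did not pass with all tumors (-1.11 ± 0.66, adjusted p = 0.18), and without replicate 1 it was -3.40 (adjusted p = 0.00049).

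In CAFs *Bmp7* was at 41 and 42.1 RPKM in EO771 and at 29.0 and 39.9 RPKM in Pan02, against 1.07 and 0.933 RPKM in LL2 and 0.196 and 0.118 RPKM in MC38. EO771 and Pan02 CAFs did not separate (0.28 ± 0.17 in log2(RPKM + 1), limma, adjusted p = 0.20), whereas both lay far above LL2 and MC38. The 2 CAF groups with the highest *Bmp7* were also the 2 with the highest *Krt8*. Other epithelial markers did not follow this order: *Krt18* averaged 1.06 RPKM in EO771 CAFs and 98.9 RPKM in LL2 CAFs. *Cdh1*, *Krt18*, *Krt19* and *Krt7* were lower in EO771 CAFs than the mean of the other models. The part of epithelial RNA in the *Bmp7* values was not tested.

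*Bmp2* (chr2:133552159-133562896, plus strand), an inducer of bone and cartilage, was low throughout and was scarcest in B16. B16 tumors were at 0.166, 0.367 and 0.266 RPKM, from 6 to 21 counts each, and the other 12 tumors lay between 1.27 and 4.56 RPKM. The B16 range thus did not overlap that of any other model (-3.27 ± 0.45 on the log2 scale, edgeR, adjusted p = 2.6e-05). EO771, LL2, MC38 and Pan02 tumors averaged 2.42 to 2.83 RPKM and no neighbours among them separated (adjusted p = 0.82 to 0.97).

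CAFs ordered *Bmp2* differently. It was at 4.12 and 3.87 RPKM in LL2, 2.76 and 2.53 RPKM in EO771, 1.10 and 0.576 RPKM in MC38, and 0.425 and 0.110 RPKM in Pan02. LL2 CAFs were above all other CAF libraries (1.30 ± 0.16 in log2(RPKM + 1), limma, adjusted p = 0.00096) and Pan02 CAFs below them (-1.35 ± 0.16, adjusted p = 0.00037), but the step from LL2 to EO771 did not pass (adjusted p = 0.10). Pan02 tumors, by contrast, held on average 2.83 ± 1.65 RPKM (SD, n = 3).

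*Inhba* (chr13:16011851-16031609, plus strand) encodes the subunit of activin A. It was at 26.1, 13.4 and 17.6 RPKM in Pan02 tumors. EO771 tumors held 2.71, 4.90 and 6.74 RPKM, MC38 tumors 6.28, 3.03 and 3.29 RPKM, LL2 tumors 1.86 to 2.31 RPKM, and B16 tumors 0.254, 1.38 and 1.69 RPKM. All Pan02 tumors lay above and all B16 tumors below the rest. The differences from the mean of the other models were 2.87 ± 0.32 for Pan02 (edgeR, adjusted p = 5.8e-06) and -2.20 ± 0.45 for B16 (adjusted p = 0.00076). LL2 was lower by the same test (-1.18 ± 0.41, adjusted p = 0.034), but this call was lost without any single LL2 tumor (adjusted p = 0.076 to 0.10), without B16 replicate 2 or 3 and without EO771 replicate 2 or 3 (adjusted p = 0.051 to 0.053).

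In CAFs *Inhba* was at 21.6 and 17.5 RPKM in Pan02, 12.1 and 13.9 RPKM in EO771, 3.43 and 3.52 RPKM in LL2, and 2.69 and 2.08 RPKM in MC38. Pan02 was above all others by 1.78 ± 0.13 in log2(RPKM + 1) (limma, adjusted p = 4.3e-05), and MC38 below all others (-1.69 ± 0.13, adjusted p = 6.4e-05). The step from Pan02 to EO771 passed (0.55 ± 0.16, adjusted p = 0.023) and that from LL2 to MC38 did not (adjusted p = 0.070).

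*Inhbb* (chr1:119415463-119422248, minus strand), the subunit of activin B, was likewise highest in Pan02 tumors, and its mean per length was above that of *Inhba* in all 5 tumor models. Pan02 tumors held 46.1, 32.4 and 41.4 RPKM. EO771 tumors held 11.4 to 19.7 RPKM, LL2 tumors 6.99 to 16.8 RPKM, MC38 tumors 4.30 to 7.07 RPKM and B16 tumors 2.60 to 6.37 RPKM. Only the Pan02 range was free of overlap with others (2.34 ± 0.25 on the log2 scale, edgeR, adjusted p = 3.8e-06). B16 and MC38 were both lower than the mean of their others (-1.83 ± 0.33, adjusted p = 0.00030, and -1.27 ± 0.32, adjusted p = 0.0043).

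The CAF order of *Inhbb* was unlike the tumor order, in that Pan02 did not lead. LL2 CAFs were at 19.9 and 17.3 RPKM, EO771 CAFs at 18.1 and 14.7 RPKM and Pan02 CAFs at 12.0 and 18.0 RPKM, with MC38 CAFs at 2.62 and 0.812 RPKM. The first 3 groups overlapped and did not separate (adjusted p = 0.70 and 0.74), and MC38 lay below their mean (-2.77 ± 0.27 in log2(RPKM + 1), limma, adjusted p = 0.00015). The 3 groups above MC38 are those with *Krt8* RNA, but *Krt18* averaged only 1.06 RPKM in EO771 CAFs, beside 0.55 RPKM in MC38 CAFs. Without the shallow MC38 library b the MC38 value was -2.27 (adjusted p = 0.00023). Here and wherever a CAF library is left out, its group has 1 library, which is assumed to vary like those of the other groups.

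*Gdf15* (chr8:70629393-70632095, minus strand), a stress-induced factor that signals through GFRAL in the hindbrain, was highest in MC38 tumors. They held 20.3, 16.9 and 25.0 RPKM, above all other tumors (1.79 ± 0.28 on the log2 scale, edgeR, adjusted p = 0.00012), although the step to Pan02, the next model, did not pass (0.93 ± 0.39, adjusted p = 0.051). Pan02 tumors spread from 4.33 to 15.4 RPKM, EO771 tumors from 8.28 to 12.6 RPKM, LL2 tumors from 2.56 to 4.67 RPKM and B16 tumors from 2.01 to 3.99 RPKM. LL2 and B16 overlapped each other and were lower than the mean of their others (-1.21 ± 0.34, adjusted p = 0.011, and -1.72 ± 0.36, adjusted p = 0.00084). Without LL2 replicate 3 the LL2 value was -0.97 (adjusted p = 0.065).

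In CAFs *Gdf15* was lowest in LL2, at 2.12 and 0.525 RPKM, below every other library (-2.81 ± 0.44 in log2(RPKM + 1), limma, adjusted p = 0.0030). Without LL2 library b this was -2.29 (adjusted p = 0.052). Pan02 CAFs held 29.9 and 8.94 RPKM, MC38 CAFs 17.7 and 11.4 RPKM and EO771 CAFs 12.4 and 12.3 RPKM, and these 3 groups overlapped.

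**Figure D2:**
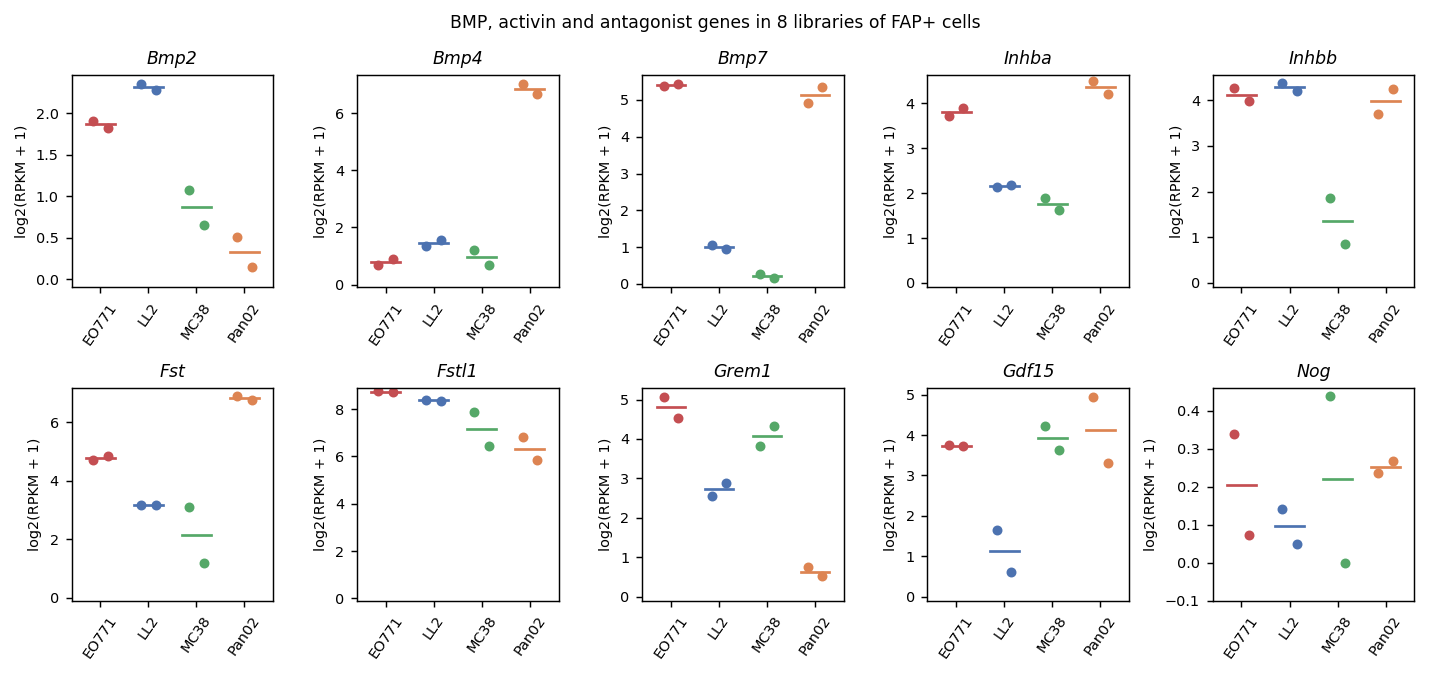
Level of each gene in the 8 libraries of FAP+ cells, as log2(RPKM + 1), with 2 points per model and a line at their mean. *Bmp4* and *Fst* were highest in Pan02, *Bmp7* was high in EO771 and Pan02, and *Grem1* was at 0.680 and 0.444 RPKM in Pan02.

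*Fst* (chr13:114452262-114458951, minus strand) encodes follistatin, which neutralizes activins. It was at 78.5, 15.8 and 19 RPKM in Pan02 tumors, with replicate 1 far above the other two. LL2 tumors held 1.75, 6.36 and 7.09 RPKM, EO771 tumors 2.70 to 3.92 RPKM, MC38 tumors 1.57 to 3.95 RPKM and B16 tumors 0.138 to 0.437 RPKM. The Pan02 tumors lay above and the B16 tumors below all others. The differences from the other models were 4.21 ± 0.42 for Pan02 (edgeR, adjusted p = 1.7e-06) and -4.37 ± 0.71 for B16 (adjusted p = 0.00013). The 3 models in between did not separate from their neighbours (adjusted p = 0.48 and 0.85).

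In CAFs *Fst* was at 118 and 107 RPKM in Pan02, 25.4 and 27.6 RPKM in EO771, 7.96 and 8.03 RPKM in LL2, and 7.59 and 1.31 RPKM in MC38. Pan02 was above all others by 3.46 ± 0.41 in log2(RPKM + 1) (limma, adjusted p = 0.00043) and MC38 below all others (-2.77 ± 0.41, adjusted p = 0.00097). Without MC38 library b the MC38 value was -1.82 (adjusted p = 7.7e-05), and without library a it was -3.72 (adjusted p = 1.1e-05). LL2 was lower as well (-1.42 ± 0.41, adjusted p = 0.035), a call lost without any single library of LL2, EO771 or Pan02 (adjusted p = 0.060 to 0.18). With all libraries it was also lost without the filter on low values (adjusted p = 0.082) and with a pseudocount of 0.1 (adjusted p = 0.085). The ratio of *Fst* to *Inhba*, both per length, was 5.47 and 6.15 in the Pan02 CAF libraries, against 0.631 to 2.83 in the other 6. In Pan02 tumors the ratio was 1.08 to 3.01, and it overlapped LL2 tumors, at 0.943 to 3.75.

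*Fstl1* (chr16:37777055-37836516, plus strand), a follistatin-like glycoprotein made by mesenchymal cells, was the most abundant of the 10 genes per length in all 5 tumor models. B16 tumors held 14.3, 21.3 and 23.8 RPKM, and the other 12 tumors 80.3 to 223 RPKM. B16 lay below every other tumor (-2.83 ± 0.25 on the log2 scale, edgeR, adjusted p = 3.8e-07). Pan02 was higher than the mean of its others (1.37 ± 0.19, adjusted p = 3.0e-05) while its range of 172 to 223 RPKM overlapped that of MC38, 90.2 to 201 RPKM. No neighbours in the order Pan02, MC38, LL2 and EO771 separated (adjusted p = 0.12 to 0.40), but EO771 was below MC38 (-0.79 ± 0.26, adjusted p = 0.021) and Pan02 (-1.14 ± 0.26, adjusted p = 0.0020).

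In CAFs the order of *Fstl1* was the reverse for Pan02 and EO771. EO771 CAFs held 432 and 425 RPKM, LL2 CAFs 336 and 324 RPKM, MC38 CAFs 237 and 85.7 RPKM, and Pan02 CAFs 112 and 56.6 RPKM. Both EO771 libraries lay above all others, and EO771 was higher than the mean of its others (1.46 ± 0.39 in log2(RPKM + 1), limma, adjusted p = 0.016). Pan02 was lower than the mean of its others (-1.76 ± 0.39, adjusted p = 0.0070), with MC38 library b inside the Pan02 range. No neighbours in this order separated (adjusted p = 0.56, 0.069 and 0.17). EO771 did separate from MC38 and Pan02, and LL2 from Pan02 (adjusted p under 0.05). With 1 library left in the group, EO771 was at 1.44 without its library a (adjusted p = 0.097) and 1.47 without b (adjusted p = 0.094), and Pan02 at -1.28 without its library b (adjusted p = 0.075).

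*Grem1* (chr2:113748675-113758648, minus strand) encodes gremlin 1, which binds BMP2, BMP4 and BMP7. B16 tumors held 0, 7 and 0.5 counts, or 0, 0.266 and 0.0153 RPKM, and the 0 allows up to 0.180 RPKM (3 counts, counting error only). MC38 tumors held 16.1, 23.8 and 22.6 RPKM, EO771 tumors 10.9, 20.9 and 21.1 RPKM, Pan02 tumors 22.5, 11.3 and 9.44 RPKM, and LL2 tumors 12.5, 11 and 7.62 RPKM. B16 thus stood apart from 4 models that overlapped (-7.12 ± 0.60 on the log2 scale, edgeR, adjusted p = 2.6e-07). No neighbours among the other 4 separated (adjusted p = 0.34 to 0.64), and their higher calls were set against a mean that includes B16. That of LL2 (1.08 ± 0.34, adjusted p = 0.020) fell short without LL2 replicate 1 or 2 (adjusted p = 0.084 and 0.068), and below a log2 change of 1 without B16 replicate 1 or 3 or Pan02 replicate 3 (0.94 to 0.99).

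In CAFs, by contrast, *Grem1* differed at every step. EO771 CAFs were at 32.6 and 22.2 RPKM, MC38 CAFs at 13.2 and 19.1 RPKM, LL2 CAFs at 4.89 and 6.43 RPKM and Pan02 CAFs at 0.680 and 0.444 RPKM. No groups overlapped, and all 3 steps in this order passed (limma, adjusted p = 0.037, 0.0034 and 0.00056). Pan02 CAFs lay below the mean of the others (-3.23 ± 0.20 in log2(RPKM + 1), limma, adjusted p = 1.8e-05), although Pan02 tumors held 14.4 ± 7.1 RPKM (SD, n = 3).

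*Nog* (chr11:89300638-89302559, minus strand), the BMP antagonist noggin, was at the edge of detection. Pan02 tumors held 53, 13 and 6 counts (1.35, 0.457 and 0.188 RPKM), MC38 tumors 5, 7 and 25.5 counts, LL2 tumors 0, 15 and 17 counts, B16 tumors 0, 2.5 and 1 counts and EO771 tumors 0.5, 0 and 0 counts. The EO771 tumors overlapped those of B16 and LL2, the Pan02 tumors overlapped those of LL2 and MC38, and a count of 0 in the EO771 tumors allows up to 0.136 RPKM. Pan02 was higher than the mean of the other models (2.76 ± 0.80 on the log2 scale, edgeR, adjusted p = 0.0089), but not without its replicate 1 (1.66, adjusted p = 0.15). The lower call in EO771 (adjusted p = 0.047), for which no fold is given because these tumors were under 3 counts, was lost without any single EO771 tumor (adjusted p = 0.10 to 0.12). It was also lost without B16 replicate 2 or 3, LL2 replicate 2 or 3, or Pan02 replicate 1 or 2 (adjusted p = 0.052 to 0.12).

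*Nog* was uneven between tumors of 1 model, and so was skeletal muscle RNA. *Acta1*, the actin of skeletal muscle, was at 0.785 RPKM in the LL2 tumor with 0 *Nog* counts and at 399 and 415 RPKM in the other two. It was highest at 967 RPKM in the MC38 tumor with 25.5 *Nog* counts, at 323 RPKM in the Pan02 tumor with 53, at 291 and 132 RPKM in the MC38 tumors with 5 and 7, and at 0.993 to 1.60 RPKM in all B16 and EO771 tumors. The sum of 6 muscle markers was 247 to 1970 RPKM in MC38, 3.45 to 710 RPKM in LL2, 25.5 to 567 RPKM in Pan02, and 4.98 to 10.8 RPKM in B16 and EO771 tumors, in which *Myl1* was at 0 in EO771. The part of muscle RNA in the *Nog* values was not tested. In CAFs *Nog* did not exceed 0.355 RPKM and was not tested.

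**Figure D3:**
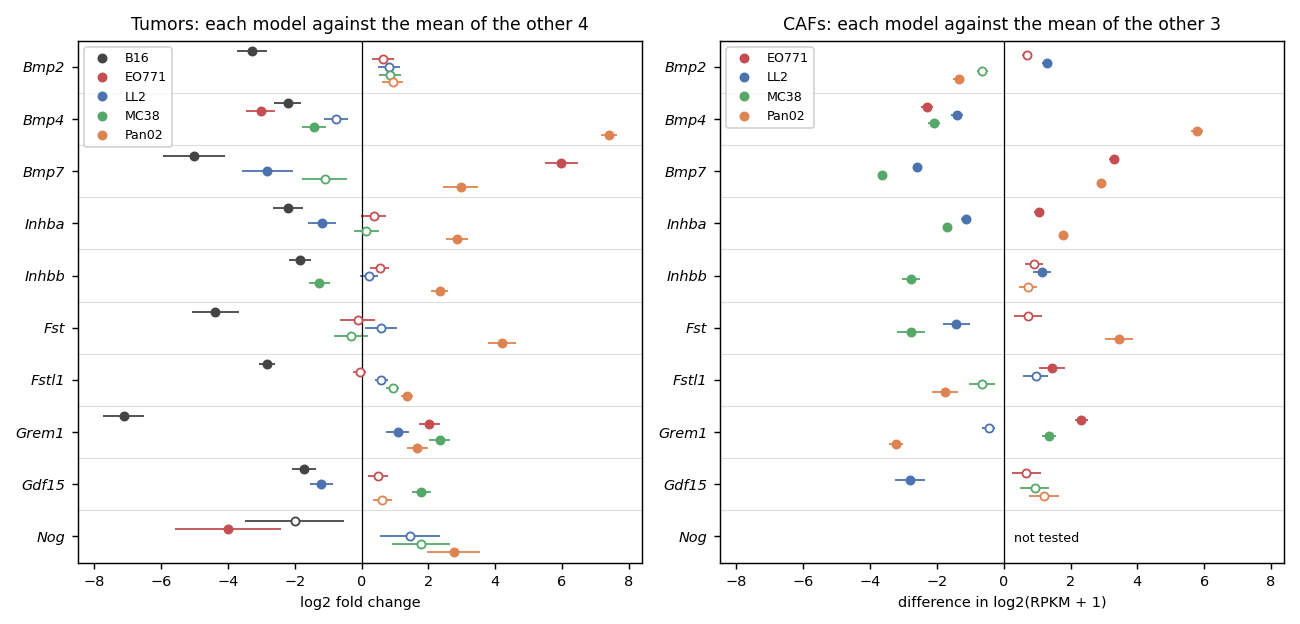
Difference of each model from the mean of the other models for each gene, with its SE, in tumors (edgeR, left) and in CAFs (limma, right), on a log2 axis. Filled points passed an adjusted p under 0.05 and a log2 difference of at least 1, and open points did not. In tumors the B16 points lie at the left for all 10 genes and the Pan02 points at the right for all 10, whereas in CAFs Pan02 lies on both sides.

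Set side by side, the 10 genes separated the models as follows. All 10 differed among the 5 tumor models (edgeR, adjusted p under 0.05), where 91.1% of all 15722 genes tested did so, and all 9 tested genes differed among the 4 CAF models, where 80.4% of 13598 did, so these counts lie near the background. Against the mean of the other models, with a log2 change of at least 1 also required, 9 of 10 genes were lower in B16 tumors (19.6% of all genes were) and 0 higher (13.1%). The exception was *Nog*. In Pan02 tumors 8 of 10 were higher (18.8%) and 0 lower (7.93%), without *Bmp2* and *Gdf15*, which gave 0.93 (adjusted p = 0.022) and 0.63 (adjusted p = 0.082). The median difference over the 10 genes was -2.52 in B16 and 2.55 in Pan02, beside -0.03 and 0.05 over all genes.

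The other 3 tumor models had fewer calls. In EO771 tumors *Bmp7* and *Grem1* were higher (9.71% of all genes) and *Bmp4* and *Nog* lower (13.7%). LL2 tumors had *Grem1* higher (8.51%) and *Bmp7*, *Gdf15* and *Inhba* lower (8.29%). MC38 tumors had *Grem1* and *Gdf15* higher (11.2%) and *Bmp4* and *Inhbb* lower (8.24%).

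Ordered by level, 12 of 40 neighbouring pairs of tumor models and 14 of 27 of CAF models were separated over these genes (adjusted p under 0.05, no fold required). Neighbours are adjacent in each gene's own order, so these counts do not compare with shares for fixed pairs of models. For fixed pairs, 2 of 10 genes (LL2 and MC38) to 10 of 10 (B16 and Pan02) passed in tumors. In CAFs 5 of 9 (LL2 and MC38) to 8 of 9 (LL2 and Pan02) passed. Over all genes the share passing between 2 tumor models was 58.6% for B16 and EO771, 56.6% for B16 and LL2, 60.0% for B16 and MC38, 64.3% for B16 and Pan02 and 44.4% for EO771 and LL2. It was 49.4% for EO771 and MC38, 61.2% for EO771 and Pan02, 43.8% for LL2 and MC38, 48.6% for LL2 and Pan02 and 58.9% for MC38 and Pan02. Between CAF models it was 36.2% for EO771 and LL2, 56.3% for EO771 and MC38, 53.2% for EO771 and Pan02, 48.7% for LL2 and MC38, 35.5% for LL2 and Pan02 and 58.7% for MC38 and Pan02.

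B16 and Pan02 were also the extremes for fibroblast RNA. The summed level of 10 fibroblast markers was 88.0 to 330 RPKM in B16 tumors, 593 to 2691 RPKM in EO771, LL2 and MC38 tumors and 8247 to 9167 RPKM in Pan02 tumors. All 10 markers were lower in B16 and all 10 higher in Pan02. Over the same tumors 7 epithelial markers summed to 3.83 to 6.39 RPKM in B16 and 1467 to 2233 RPKM in Pan02, with *Cldn4* at 0 in B16. Leukocyte markers moved the same way, with 8 of 10 lower in B16 (sums of 476 to 1094 RPKM) and 5 of 10 higher and 0 lower in Pan02 (1813 to 5663 RPKM). The part of any of these cell types in the results for the 10 genes was not tested.

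In CAFs Pan02 had *Bmp4*, *Bmp7*, *Fst* and *Inhba* higher (4 of 9, against 9.73% of all genes) and *Bmp2*, *Fstl1* and *Grem1* lower (3 of 9, against 8.41%). EO771 CAFs had *Bmp7*, *Fstl1*, *Grem1* and *Inhba* higher (4 of 9, 8.05%) and *Bmp4* lower (1 of 9, 7.06%). LL2 CAFs had *Bmp2* and *Inhbb* higher (2 of 9, 3.89%) and *Bmp4*, *Bmp7*, *Fst*, *Gdf15* and *Inhba* lower (5 of 9, 5.13%). The *Inhbb* call in LL2 (1.14 ± 0.27, adjusted p = 0.016) gave adjusted p = 0.14 and 0.098 without LL2 library a or b, and a difference of 0.97 without MC38 library b. MC38 CAFs had *Grem1* higher (1 of 9, 10.9%) and *Bmp4*, *Bmp7*, *Fst*, *Inhba* and *Inhbb* lower (5 of 9, 9.87%). Without library b of MC38 the number called in MC38 was again 6, and without library a it was 7, with *Fstl1* at -1.38 (adjusted p = 0.0064) against 0.08 without b (adjusted p = 0.83). In Pan02 CAFs 7 epithelial markers summed to 886 to 1172 RPKM and in EO771 CAFs to 494 to 501 RPKM, against 207 to 212 RPKM in LL2 and 2.16 to 4.85 RPKM in MC38 CAFs. Of these 7 markers, EO771 CAFs had 1 higher (*Krt8*) and 4 lower (*Cdh1*, *Krt18*, *Krt19* and *Krt7*). Pan02 CAFs had 5 higher and 0 lower, LL2 CAFs 3 higher and 0 lower, and MC38 CAFs 0 higher and 5 lower. The part of epithelial RNA in the counts for the 10 genes was not tested.

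**Figure D4:**
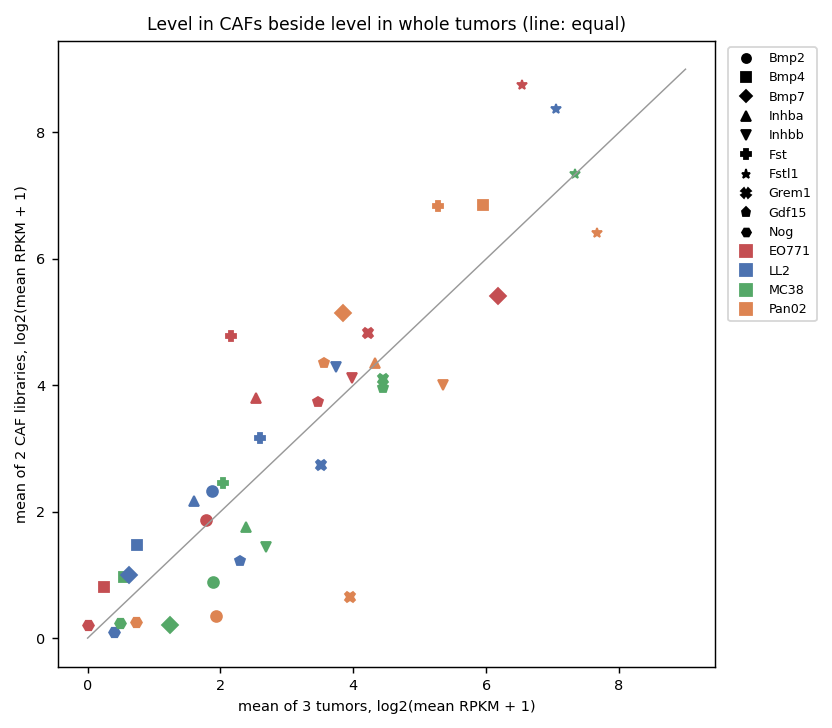
Mean level of each gene (symbol) in each model (color) in the 2 CAF libraries against its mean in the 3 whole tumors, both as log2(mean RPKM + 1), with a line of equal level. *Fst* in EO771 and Pan02 and *Fstl1* in EO771 and LL2 lie above the line, and *Grem1* in Pan02 lies farthest below it.

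The levels of CAFs and whole tumors stand side by side without a test, because the tables were normalized separately and *Bmp4*, *Fst* and *Gdf15* were represented by transcripts of other lengths in each. Of 40 pairs of a gene and a model, the CAF mean was above the tumor mean in 24. With values scaled to a common sum it was again above in 24. Before this scaling the CAF values lay above all 3 tumors in 15 pairs, below them in 11 and overlapped them in 14. No share over all genes stands beside these counts. Whether they differ from a general shift between the tables was not tested. *Fst*, the activin antagonist, averaged 7.68 times its tumor level in EO771 CAFs and 2.98 times in Pan02 CAFs. *Fstl1* averaged 4.64 times its tumor level in EO771 CAFs and 2.5 times in LL2 CAFs but 0.414 times in Pan02 CAFs.

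*Inhba* was 2.71 times its tumor level in EO771 CAFs and 1.02 times in Pan02 CAFs, whereas *Inhbb* was 0.375 times in Pan02 CAFs. *Bmp7* was 0.583 times its tumor level in EO771 CAFs and 2.57 times in Pan02 CAFs, and *Bmp4* was 1.89 times in Pan02 CAFs. The lowest ratio was that of *Grem1* in Pan02 CAFs, 0.0390 times the tumor level, beside 1.55 times in EO771 CAFs. *Col1a1* was likewise lower in Pan02 CAFs, at 1165 RPKM, than in Pan02 tumors, at 4092 RPKM. *Fap*, the gene of the sorting antigen, averaged 2.58 RPKM in Pan02 CAFs and 4.09 RPKM in Pan02 tumors, whereas in the other 3 models it averaged 6.81 to 9.58 RPKM in CAFs and 0.442 to 1.75 RPKM in tumors.

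The rest of the pathway was described with lists of receptors, ligands, antagonists and modulators, transducers and targets. Of 16 other antagonists and modulators of BMP and activin ligands, *Kcp* counted among them, 12 were tested in tumors. In Pan02 tumors 8 of them were higher and 0 lower (18.8% and 7.93% of all genes), and in B16 tumors 6 were lower and 2 higher (19.6% and 13.1%). *Nbl1*, a BMP antagonist of the DAN family, averaged 316 ± 87 RPKM in Pan02 tumors and 198 ± 10 RPKM in EO771 tumors (SD, n = 3), against 2.87 ± 1.74 RPKM in B16. *Chrd* (chordin), which binds BMPs, averaged 6.84 ± 3.32 RPKM in Pan02 and at most 0.879 RPKM elsewhere (3.74 ± 0.28 on the log2 scale, adjusted p = 1.6e-07). *Kcp*, a chordin-like protein that enhances BMP signaling, averaged 3.40 ± 0.60 RPKM in Pan02 tumors and at most 0.619 RPKM elsewhere. In CAFs 10 were tested, and 3 were higher and 1 lower in Pan02 (9.73% and 8.41% of all genes). *Crim1*, a transmembrane BMP-binding protein, was at 24.0 ± 1.6 RPKM in Pan02 CAFs (SD, n = 2) and 2.99 to 8.11 RPKM in the others, and *Twsg1*, a chordin cofactor, at 49.2 ± 4.6 RPKM and 12.3 to 29.6 RPKM. *Kcp* was the one lower, at 0.742 ± 0.258 RPKM against 1.49 to 4.45 RPKM.

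Of 21 other ligands, 11 were tested in tumors and 6 in CAFs. *Inha*, the inhibin alpha subunit that turns activin subunits into inhibins, averaged 4.60 ± 1.11 RPKM in MC38 and 4.54 ± 0.76 RPKM in Pan02 tumors, against 0.113 ± 0.052 RPKM in EO771 tumors. In CAFs it was highest in MC38, at 23.4 ± 2.8 RPKM (SD, n = 2) beside 2.11 to 7.73 RPKM, where *Inhba* and *Inhbb* were lowest. *Inhbe*, a liver and stress-induced activin subunit, averaged 1.91 ± 0.60 RPKM in MC38 tumors and at most 0.162 RPKM elsewhere. *Gdf1* averaged 12.8 ± 0.3 RPKM in B16 tumors, 3.97 ± 1.19 RPKM in MC38 tumors and under 1 RPKM in the others, and 15.1 ± 1.7 RPKM in MC38 CAFs against 0.965 to 1.70 RPKM in the other CAFs. It lies on a transcript shared with *Cers1*, so its reads cannot be assigned to it with certainty. *Gdf11*, an activin-like ligand, averaged 5.22 ± 1.13 RPKM in Pan02 CAFs and 2.24 to 2.67 RPKM in the others.

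Of 13 receptors and co-receptors tested in tumors, 3 were higher and 0 lower in Pan02 (18.8% and 7.93% of all genes), and 2 higher and 2 lower in B16 (13.1% and 19.6%), near the shares over all genes. *Tgfbr3* (betaglycan), a co-receptor for inhibin, averaged 49.9 ± 11.6 RPKM in LL2 tumors and 1.45 to 10.1 RPKM elsewhere, and it was highest in LL2 CAFs as well, at 43.5 RPKM. *Eng* (endoglin), a co-receptor of endothelial cells, was highest in B16 tumors, at 144 ± 16 RPKM. Of 8 endothelial markers, 0 were higher and 2 (*Cldn5* and *Tek*) lower in B16 tumors. *Rgmb*, a BMP co-receptor, averaged 61.4 RPKM in LL2 and 42.3 RPKM in Pan02 tumors and 10.9 to 20.7 RPKM in the others, and 47.3 and 54.7 RPKM in LL2 and Pan02 CAFs against 6.95 and 10.6 RPKM in EO771 and MC38 CAFs. *Bmpr2*, the type II BMP receptor, was at 7.11 ± 0.19 RPKM in Pan02 CAFs and 2.28 ± 0.13 RPKM in MC38 CAFs (SD, n = 2). Of 11 receptors tested in CAFs, 1 was higher and 3 lower in Pan02 (9.73% and 8.41% of all genes).

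Of 7 transducers, 6 differed among models in each table, near the 91.1% and 80.4% over all genes. *Smad4*, the shared partner of both branches, was lowest in Pan02 in both, at 12.4 ± 1.7 RPKM in tumors (-1.10 on the log2 scale, edgeR, adjusted p = 3.0e-07) and 7.27 ± 1.09 RPKM in CAFs (-1.25 in log2(RPKM + 1), limma, adjusted p = 9.2e-05). *Smad3*, which activins activate, was at 40.9 ± 0.9 RPKM in Pan02 CAFs and 6.32 to 14.0 RPKM in the others. *Smurf1*, a ubiquitin ligase for BMP SMADs, averaged 14.2 RPKM in B16 and 39.7 RPKM in MC38 tumors, *Smad5*, which BMPs activate, averaged 30.3 RPKM in B16 tumors and 10.4 to 18.7 RPKM elsewhere, and *Smurf2* was lowest in MC38 CAFs at 4.79 RPKM.

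**Figure D5:**
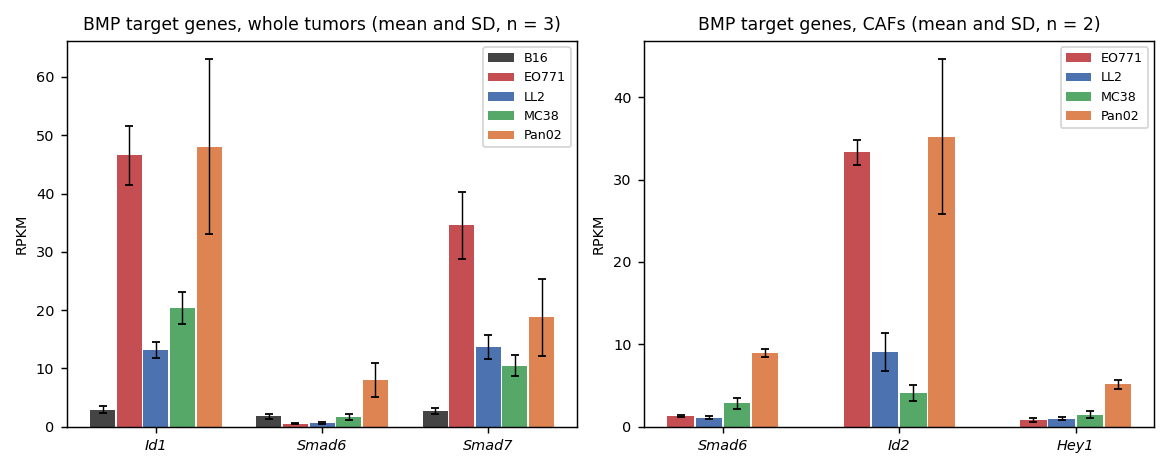
Level (RPKM) of the 3 BMP target genes with the smallest adjusted p over models in tumors (left) and in CAFs (right), as bars of the mean with SD. *Id1* averages 46.5 RPKM in EO771 and 48.0 RPKM in Pan02 tumors, *Smad6* is highest in Pan02 in both panels, and *Id2* is high in EO771 and Pan02 CAFs.

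Of 10 BMP target genes tested in tumors, 6 (*Atoh8*, *Id1*, *Id3*, *Id4*, *Msx1* and *Smad6*) were higher in Pan02 and 0 lower, against 18.8% and 7.93% of all genes. In CAFs 5 of 9 (*Atoh8*, *Hey1*, *Id1*, *Id2* and *Smad6*) were higher and 2 (*Id4* and *Msx1*) lower in Pan02, against 9.73% and 8.41%. *Id1*, an inhibitor of differentiation directly induced by BMP SMADs, averaged 48.0 ± 15 RPKM in Pan02 and 46.5 ± 5.0 RPKM in EO771 tumors, the models with the highest *Bmp4* and *Bmp7*, and 2.95 ± 0.64 RPKM in B16. *Smad6*, an inhibitory SMAD that feeds back on BMP receptors, averaged 8.06 ± 2.93 RPKM in Pan02 tumors (3.0 ± 0.22 on the log2 scale, edgeR, adjusted p = 1.4e-07) but 0.537 ± 0.094 RPKM in EO771 tumors, where *Bmp7* was highest. *Smad7*, the inhibitory SMAD of both branches, was highest in EO771, at 34.6 ± 5.8 RPKM. EO771 tumors had 2 targets higher (*Id1* and *Smad7*) and 4 lower (*Atoh8*, *Id3*, *Smad6* and *Smad9*), against 9.71% and 13.7% of all genes. B16 tumors had 1 higher (*Id2*) and 5 lower (*Id1*, *Id3*, *Id4*, *Msx1* and *Smad7*), against 13.1% and 19.6%.

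In Pan02 CAFs *Smad6* averaged 9.0 ± 0.50 RPKM (SD, n = 2) beside 1.11 to 2.85 RPKM in the others, and *Hey1*, a transcriptional repressor, 5.13 ± 0.51 RPKM beside 0.868 to 1.48 RPKM. *Id2* averaged 35.2 ± 9.4 RPKM in Pan02 and 33.3 ± 1.5 RPKM in EO771 CAFs, against 9.08 and 4.06 RPKM in LL2 and MC38 CAFs. These target genes are also induced by other signals, and their levels do not measure BMP activity.

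*Gdf15* stood beside a list of 9 stress response genes. In MC38 tumors, where it was highest, 2 of the 9 were higher (*Chac1* and *Trib3*) and 0 lower, against 11.2% and 8.24% of all genes. In MC38 CAFs 3 were higher (*Chac1*, *Ddit3* and *Trib3*) and 3 lower (*Atf3*, *Cdkn1a* and *Mdm2*), against 10.9% and 9.87%. *Trib3*, a pseudokinase induced by ATF4, averaged 43.7 ± 14.8 RPKM in MC38 CAFs and 4.51 to 12.5 RPKM in the others, whereas *Gdf15* did not separate MC38 from EO771 or Pan02 CAFs. *Cdkn1a*, the p53 target p21, averaged 300 ± 14 RPKM in EO771 and 252 ± 38 RPKM in LL2 tumors, and *Mdm2*, another p53 target, was highest in LL2 tumors at 37.8 ± 3.05 RPKM, where *Gdf15* was low. *Sesn2* was lowest in B16 tumors, at 9.30 ± 0.775 RPKM. *Asns*, an amino acid starvation gene, was at 74.3 RPKM in EO771 CAFs and 10.5 RPKM in Pan02 CAFs.

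Over the 15 tumors, the genes most like each member were named by Pearson's r of log2(CPM + 1), as a description. The points share their 5 models, so r mainly reflects the model means. Among the genes most like *Bmp4* were *Notum* and *Foxq1* (r = 0.992 for both), and *Bmp7* was most like *Lingo1*, *Wnt10b* and *Mgst2* (r = 0.959 to 0.970). *Inhba* was most like the matrix genes *Fndc1*, *Sparc* and *Col5a2* (r = 0.953 to 0.955), and *Inhbb* most like *Zbtb4*, *Pink1* and *Timp2* (r = 0.949 to 0.968). *Fst* was most like *Per2*, *Tpst2* and *Pcsk5* (r = 0.952 to 0.956) and *Fstl1* most like *Htra1*, *P4ha3* and *Pld2* (r = 0.961 to 0.973). *Grem1* was most like *Snai1*, *Clcf1* and *Aim2* (r = 0.976 to 0.984), *Bmp2* most like *Jun*, *S1pr1* and *Tm6sf1* (r = 0.931 to 0.946) and *Gdf15* most like *Brinp3*, *Snx7* and *Adm2* (r = 0.888 to 0.914). *Nog* was most like *Ankrd23*, *Eef1a2* and *Des*, genes of striated muscle (r = 0.857 to 0.863), and for these r rose to 0.920 to 0.965 when deviations from the model means were used.

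Among the 10 genes themselves, *Bmp2* and *Fstl1* were the most alike over the tumors (r = 0.913), followed by *Fstl1* and *Grem1* (r = 0.879) and *Inhba* and *Fst* (r = 0.876). Within models, as deviations from the model means, these were 0.620, -0.07 and 0.525. The highest such value was that of *Fst* and *Nog*, 0.771 (0.700 over the tumors).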

How the data were processed

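RNA was measured by poly(A) RNA-seq without strand in 15 tumors and 8 CAF libraries. Per the labels and the study's methods, the authors aligned reads to mm10 with STAR 2.5.0c and counted exons per RefSeq transcript with HOMER. The tumor table is named as normalized, but its deposited values come in steps of 0.5 and were taken as unnormalized expected counts. The CAF table gives no unit. Its deposited values were taken as RPKM, from their steps of 0.5 reads per length and the study's methods. Titles of the Pan02 tumors say Pan01, and their cell line label, Pan02, was used. Of the value columns, 5 belong to another cell line and were not used. Where a symbol had several transcripts, the one with the highest mean was kept, and 2 transcripts without a gene name were left out (2.1e-05% of tumor counts).

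Tumor counts were rounded up, filtered with filterByExpr, scaled by TMM and tested with edgeR 4.0.16 (quasi-likelihood F test, all 15 libraries, 15722 genes). Tumor RPKM were computed from counts, TMM-scaled library size and transcript length. For CAFs, limma 3.58.1 (trend) was run on log2(RPKM + 1) for 13598 genes with at least 1 RPKM in 2 libraries, and CAF fold changes on that scale understate low genes. P-values were Benjamini-Hochberg adjusted over all genes tested. Higher or lower means an adjusted p under 0.05 and a log2 difference of at least 1. DESeq2 1.42.0 was an alternative.

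The 10 genes and the gene lists were chosen with earlier results of these data known. Other genes are named by rule: the 3 of each list with the smallest adjusted p over models, the 3 most like each of the 10 genes over tumors (at least 10 CPM), and single cell type markers. One gene that this rule names is not reported here. Targets and stress genes listed by name as called were named after their values were seen. Nothing says whether libraries of a group came from separate mice, so p-values measure the spread between them. Intervals and floors cover counting error only. The scripts were tested on simulated data. Promoter sequences are from RefSeq.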

Additional observations from a re-analysis of the deposited data

Results flagged for a closer look

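*Fst*, *Fstl1* in EO771 and *Fstl1* in Pan02 moved in opposite directions in tumors and CAFs when the model was set against the mean of the other 3 models that have both, on the log2(RPKM + 1) scale. *Fst* in EO771 averaged -0.97 in tumors (-1.22 to -0.81 over 3) and 0.73 in CAFs (0.67 and 0.79). *Fstl1* in EO771 averaged -0.79 in tumors (-0.97 to -0.58) and 1.46 in CAFs (1.44 and 1.47). *Fstl1* in Pan02 averaged 0.72 in tumors (0.49 to 0.86) and -1.76 in CAFs (-2.24 and -1.28). Every library of each group lay on its side of 0, but these cases were picked for their opposite directions, so this adds no support. *Fst* in EO771 was called in neither tumors nor CAFs, and *Fstl1* in EO771 only in CAFs. For *Fst*, EO771 tumors did not separate from LL2 or MC38 tumors (edgeR, adjusted p = 0.48 and 0.85). The mean they were set against includes Pan02 tumors, at 37.7 RPKM. The difference between tables was not tested, since they were normalized separately. Groups of 2 and 3 libraries were too small to look for single outlying samples.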

How the results depend on the processing

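Under total-count scaling, DESeq2, no filter, other rounding, the longest transcript and the replicate block, all 10 genes again differed among tumor models and the calls against the other models numbered 27 to 31 (29 as reported). Under the CAF alternatives all 9 differed and calls numbered 24 to 28 (25 as reported). Without a fold threshold they numbered 33 and 28. No called difference of the 10 genes changed sign under any alternative run. Leaving out 1 library gave 26 to 31 calls in tumors and 22 to 30 in CAFs, 14127 to 14748 and 8799 to 11472 genes that differed among models, and 11 to 13 separated neighbours in tumors (12 as reported). In CAFs it gave 8 to 17 separated neighbours (14 as reported), the lowest being 8 and 9 without EO771 library a or b. Calls on LL2 tumors fell from 4 to 2 without B16 replicate 3 or LL2 replicate 3, those on EO771 CAFs from 5 to 3 without EO771 library b and those on LL2 CAFs from 7 to 4 without LL2 library b. The median r of the likeness lists, 0.956, fell to 0.668 for deviations from the model means.

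Total-count scaling moved the median of all genes by 0.14 in MC38 and -0.11 in Pan02 tumors and added *Bmp2* (1.00, adjusted p = 0.017) and *Fstl1* (1.08, adjusted p = 0.00033) in MC38. Same-numbered tumors were not treated as paired, and the labels do not say whether they share a batch. Their deviations correlated at -0.22 to 0.29 (median 0.0290, against -0.014 for tumors of other numbers). On average 8 of 15 tumors were closest to their own number, and these values do not settle whether the numbers pair tumors. With the replicate block 27 calls remained in number, *Nog* in EO771 (adjusted p = 0.069) and *Inhba* in LL2 (adjusted p = 0.052) being lost. No paired analysis was possible for CAFs because their columns carry no replicate number. edgeR on reads recovered from the CAF values (98.3% to 100% whole in steps of 0.5 reads) called 12037 genes among models, against 10932, and added *Bmp2* (1.45) and *Inhbb* (1.06) in EO771 and *Gdf15* (1.66) in Pan02. Low counts limit *Nog* in B16 and EO771 tumors and *Grem1* in B16 tumors. Counts were also low in B16 tumors for *Bmp2* (6 to 21), *Bmp4* (5 to 13), *Bmp7* (5 to 15) and *Fst* (4 to 25). In EO771 tumors *Bmp4* held 4 to 6 counts.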
